A study of Rattus norvegicus with 113 samples.

Results

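The hippocampus of rats killed 12 months after fluid percussion traumatic brain injury (TBI) was compared with that of sham-injured rats of the same interval. These arrays were chosen by their labels: 4 TBI and 4 sham arrays, with 4 naive arrays of the same interval in the same fit, 12 of the 113 arrays of the series. The series measured messenger RNA on Agilent arrays with 1 dye, 1 array per rat and region, in hippocampus and cortex at intervals up to 12 months. All rats were adult male Sprague-Dawley. TBI rats received a parasagittal fluid percussion pulse, in which a fluid wave strikes the exposed dura, called moderate in the labels and severe in the study's methods. Sham rats had the same anesthesia and surgery without the pulse, and naive rats had neither. The dissected tissue was the whole hippocampus, so a change in the number of cells of a type and a change in RNA per cell cannot be told apart. The labels do not say which rats were littermates or cage mates, and p-values measure the spread between 4 rats per group.

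The hippocampus encodes new memories through a chain of excitatory connections from entorhinal cortex to dentate granule cells and pyramidal neurons, held in check by GABA interneurons. Dopamine, serotonin, acetylcholine and glutamate receptors coupled to cyclic AMP set how readily those connections change, and axon guidance proteins and neurotrophins shape them. Microglia, the resident macrophages of the brain, can stay activated long after an injury and are read in bulk tissue through genes for surface receptors, lysosomal proteases and complement.

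Several features of the arrays touch every result. All 4 sham arrays lay in the first row of a slide and all 4 TBI arrays in the second row of the same slide, so injury and slide row cannot be told apart. The naive arrays lay on another slide. The share of probes well above background was 58.8% ± 1.35 (SD, n = 4) in sham and 55.0% ± 1.84 (n = 4) in TBI, a difference of -3.78 percentage points (exact permutation test over 70 splits, two-sided, p = 0.0571). In naive arrays the share ran from 46.5% to 53.0%. Sham replicates 2 and 4 were the lowest pair of the 8 arrays for 114 of the 151 genes called higher (75.5%), while each other pair of sham arrays was the lowest for 2 to 13 of them. Among the 270 genes called lower they were the highest pair for 98 (36.3%), and each other sham pair for 13 to 54. Genes called higher were selected for low sham values and genes called lower for high ones, so these counts are a description. Over all 11494 genes sham replicates 2 and 4 were the lowest pair for 619 (5.39%) and the highest for 1834 (16.0%). Results are therefore also given without these 2 arrays, an alternative chosen after seeing the data. Depth is not defined for arrays, and the number of arrays limits the precision.

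Of 25360 probes tested, 0 passed an adjusted p of 0.05 in limma (smallest adjusted p 0.194), while 3960 had an unadjusted p under 0.05. With array quality weights 47 passed, 9 higher and 38 lower, and these weights were largest in sham replicates 4 and 2 (2.36 and 1.63). Genes are therefore described by the rule of the study's methods, a fold change of at least 1.4 with an unadjusted p under 0.05, and a gene that meets it is named as called. Read from the brightest tested probe of each of 11494 genes, 151 genes were called higher in TBI (1.31% of those tested) and 270 lower (2.35%), with adjusted p between 0.204 and 0.320. With each array set to its 75th percentile rather than its median, the split over probes went from 358 higher (1.41%) and 828 lower (3.26%) to 468 and 580. Without sham replicates 2 and 4 it was 126 higher and 497 lower. The median log2 difference over all genes was -0.05, and each list below is set beside it. Calls were more frequent among dim probes: the dimmest of 5 equal bins held 119 higher and 395 lower calls, the brightest 10 and 45.

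**Figure D1:**
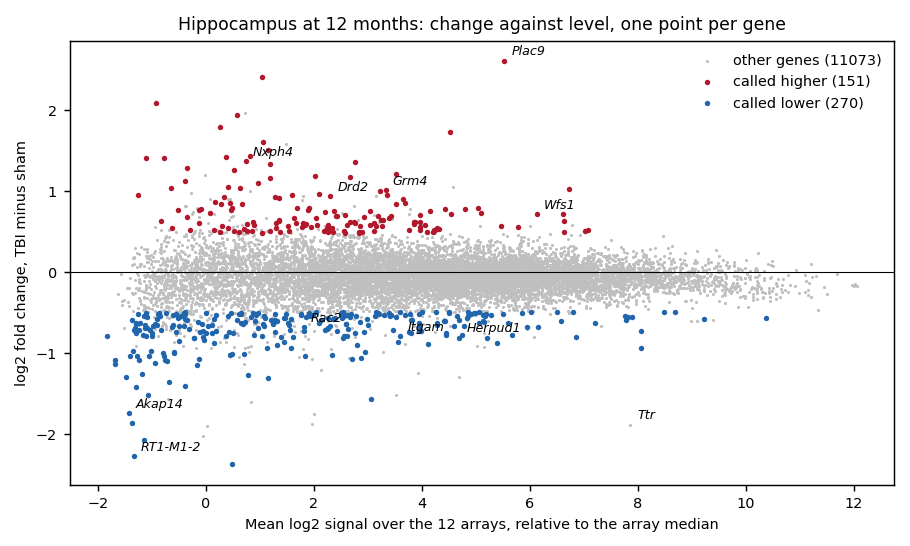
Log2 fold change of TBI over sham (y axis) against the mean log2 signal relative to the array median (x axis) for the 11494 tested genes of the hippocampus at 12 months, with the 151 genes called higher and 270 called lower coloured. The coloured points crowd toward low signal, where the scatter is widest.

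Genes of transmitter release and transmitter reception were called higher more often than lower. Over all genes 1.31% were called higher and 2.35% lower. Of 46 tested genes of synaptic vesicles and exocytosis, 6 were called higher and 0 lower, with a median log2 difference of 0.18. Of 25 monoamine and acetylcholine receptors 4 were called higher and 0 lower (median 0.22), and of 29 glutamate receptors 3 higher and 1 lower (median 0.01). At an unadjusted p under 0.05 the higher genes of the 3 lists numbered 10, 7 and 5, against 4.25% of all genes.

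Drd2, the D2 dopamine receptor that lowers cyclic AMP, had log2 levels relative to the array median of 2.16, 1.48, 1.66 and 1.68 in sham replicates 1 to 4. The TBI replicates read 3.10, 2.83, 2.56 and 2.24. No TBI array fell as low as any sham array, and the difference of 0.94 (SE 0.21, unadjusted p of limma 0.000761, adjusted p = 0.208) was a 1.92-fold higher level. The 4 naive arrays, between 2.20 and 2.82, were also above every sham array. Htr3a, a serotonin-gated ion channel of a class of interneurons, read 3.83, 3.45, 3.90 and 3.45 in sham and 4.24, 3.96, 4.27 and 4.24 in TBI, a difference of 0.52 (SE 0.16). Its groups did not overlap, although TBI replicate 2 lay close above sham replicate 3.

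Chrna4, a nicotinic acetylcholine receptor subunit, shows how much rests on the pair of low sham arrays. It read 3.50, 1.88, 3.08 and 2.04 in sham and 3.72, 3.78, 3.62 and 3.39 in TBI, a difference of 1.00 (SE 0.32). Sham replicates 2 and 4 lay far below the rest, sham replicate 1 lay inside the TBI range, and without the low pair the difference was 0.34 with an unadjusted p of limma of 0.158. Grm4, a metabotropic glutamate receptor of presynaptic terminals, read 3.52, 2.15, 3.00 and 2.21 in sham and 4.02, 3.94, 3.63 and 3.34 in TBI, and its difference went from 1.01 to 0.48 without the pair. Grm8, of the same receptor group, went from 0.79 to 0.27, and Htr7, a serotonin receptor that raises cyclic AMP, from 0.64 to 0.11. Htr7 was well above background in 2 sham arrays, so it passed the filter on dim probes only through TBI.

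Grm6, best known from the retina, behaved otherwise. It read 1.95, 2.16, 2.25 and 2.19 in sham and 2.69, 2.74, 2.38 and 2.73 in TBI, a difference of 0.50 (SE 0.10) that was 0.54 without sham replicates 2 and 4. Grin3a, an NMDA receptor subunit that limits calcium entry, was the glutamate receptor called lower, at -0.54 (SE 0.19), with 3.04, 2.46, 3.04 and 2.91 in sham and 2.29, 2.11, 2.79 and 2.10 in TBI. The sham and TBI ranges of Grin3a overlapped through sham replicate 2 and TBI replicate 3.

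Among the genes of transmitter release, Rab3b, a small GTPase on synaptic vesicles, read 5.05, 4.14, 4.94 and 4.18 in sham and 5.60, 5.43, 5.14 and 5.31 in TBI. The difference was 0.79 (SE 0.21), and 0.37 without sham replicates 2 and 4. Slc32a1, the vesicular GABA transporter, was even within the sham group, at 1.70, 1.65, 1.80 and 1.65, and read 2.69, 2.25, 1.96 and 2.24 in TBI, a difference of 0.59 (SE 0.17) that was 0.54 without the pair. For Slc17a6, a vesicular glutamate transporter, the difference of 0.56 shrank to 0.06 without them. Syt2, a fast calcium sensor for release, was higher by 0.77 (SE 0.24), Doc2a, another calcium sensor, by 0.65 and Syt13 by 0.61. Sv2a, a vesicle protein, and Rims1, a scaffold of the active zone, were named after their values were seen: their groups did not overlap, with differences of 0.24 and 0.43, but neither reached the fold for a call. Syt4, chosen in the same way, had a difference of -0.29, with no overlap between the groups.

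**Figure D2:**
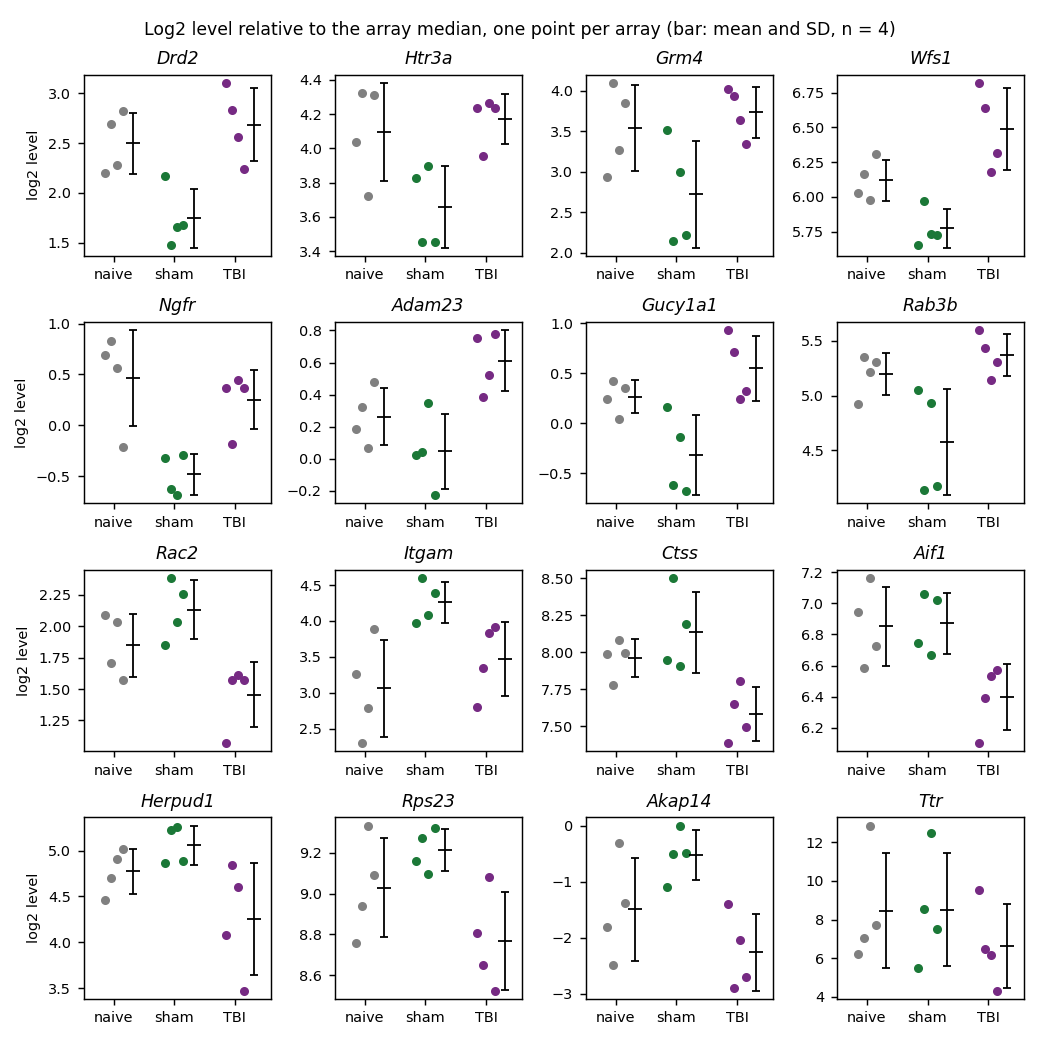
Log2 level relative to the array median (y axis) of selected genes in each naive, sham and TBI array of the hippocampus at 12 months (points, 4 per group, with mean and SD as bars). Drd2 and Rab3b are higher in all 4 TBI arrays than in all 4 sham arrays, and Itgam and Herpud1 are lower, while the naive arrays overlap the TBI arrays for Drd2.

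**Figure D3:**
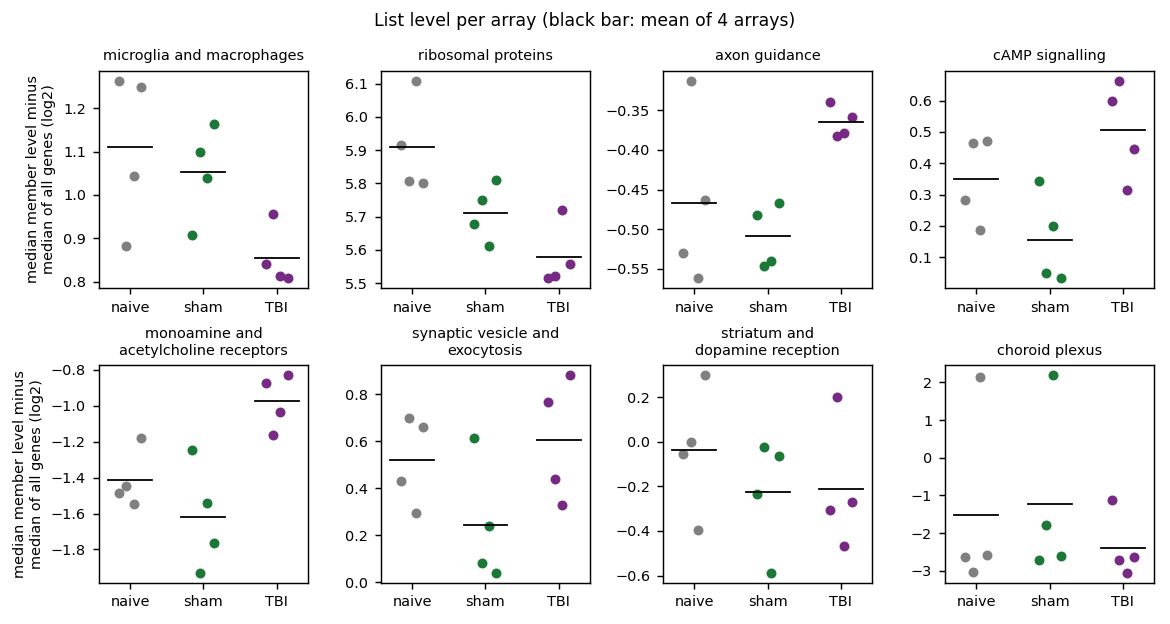
Median log2 level of the members of each list minus that of all tested genes (y axis), by array, for naive, sham and TBI hippocampus (4 points per group). The receptor scores run from -1.93 to -1.25 in sham and from -1.16 to -0.83 in TBI, and the axon guidance scores from -0.55 to -0.47 and from -0.38 to -0.34. The microglia scores overlap, from 0.91 to 1.16 in sham and from 0.81 to 0.96 in TBI.

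Interneuron and peptide genes were higher on balance. Of 19 tested interneuron markers 4 were called higher and 0 lower (median 0.17), against 1.31% and 2.35% of all genes. Cort, which encodes the peptide cortistatin, was higher by 0.73 (SE 0.22), with 4.91, 4.43, 4.91 and 4.55 in sham and 5.78, 5.20, 5.69 and 5.02 in TBI. Crhbp, which encodes a protein that binds corticotropin-releasing hormone, was higher by 0.67 (SE 0.17), and 0.59 without sham replicates 2 and 4. All 4 TBI arrays exceeded all 4 sham arrays for both genes, as for 2.91% of all genes. Yet the median score of the 19 markers overlapped between groups, from 0.34 to 0.76 in sham and from 0.31 to 0.93 in TBI. Sst and Gad1, both interneuron markers and named after their values were seen, were not called. Of 17 markers of neocortex 2 were called higher and 2 lower: Tbr1 (0.84) and Rprm (0.78), and Rorb (-0.67) and Bhlhe22 (-0.55). Rorb was well above background in 3 TBI arrays, so it passed the filter on dim probes only through sham. The median score of the 17 markers was 0.95, 0.10, 0.46 and 0.73 in sham replicates 1 to 4 and from 0.78 to 0.92 in TBI. Among these 8 arrays sham replicate 2 was the lowest in this score and sham replicate 1 the highest, and the part of attached cortex in the rises was not tested.

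Few genes of dopamine reception and cyclic AMP signaling were called. Of 17 tested markers of striatum and dopamine reception 2 were called higher and 1 lower, against 1.31% and 2.35% of all genes. At an unadjusted p under 0.05, 4 were higher and 2 lower, against 4.25% and 9.93% of all genes. Among them Kcnj4 was higher by 0.44 with no overlap, under the fold for a call. Drd2, described above, was among the genes called higher, and its difference was 0.77 without sham replicates 2 and 4. Pdyn, the precursor of dynorphin peptides, was lower by 0.61 and Adora2a, an adenosine receptor of striatal neurons, by 0.35, the latter with no overlap between groups and under the fold for a call. Ppp1r1b (DARPP-32), named after its values were seen, differed by -0.12 (unadjusted p of limma 0.3). Of 45 genes of cyclic AMP signaling 0 were called higher and 2 lower (median 0.00 and 0.05 under 75th percentile scaling). The 2 were Akap5, an anchor for protein kinase A at synapses, at -0.55 (SE 0.19), and Akap14, an anchor of cilia. Akap14 read -1.09, -0.50, -0.00 and -0.49 in sham and -1.39, -2.90, -2.05 and -2.70 in TBI, and since no TBI array was well above background it is given as at least 1.41-fold lower. Akap14 passed the filter on dim probes only through sham, and Akap5 alone is 1 call in 45 genes, near the 2.35% of all genes called lower. At an unadjusted p under 0.05, 5 of the 45 were higher and 4 lower. Among the higher ones Creb5 differed by 0.48 with no overlap, just under the fold for a call. Gucy1a1, a subunit of the nitric oxide receptor guanylate cyclase, read 0.17, -0.62, -0.14 and -0.68 in sham and 0.93, 0.71, 0.24 and 0.32 in TBI, a difference of 0.87 (SE 0.20).

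Axon guidance genes were called in both directions in equal number. Of 63 tested members 4 were called higher and 4 lower (median 0.05), against 1.31% and 2.35% of all genes. Ngfr, the p75 neurotrophin receptor, read -0.32, -0.62, -0.69 and -0.29 in sham and 0.37, -0.18, 0.45 and 0.37 in TBI, a difference of 0.73 (SE 0.22) that was 0.75 without sham replicates 2 and 4. Adam23, a synaptic membrane protein that binds integrins, read 0.02, 0.04, 0.35 and -0.23 in sham and 0.75, 0.39, 0.52 and 0.78 in TBI, a difference of 0.57 (SE 0.14). Both were low on these arrays, near the array median, and in both the groups did not overlap. Dpysl5, a collapsin response mediator of growth cones, was higher by 0.55 and Efna5, an ephrin ligand, by 0.68, the latter by 0.17 without the low sham pair.

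Rac2, a small GTPase mainly of blood-derived cells, was lower: it read 1.85, 2.38, 2.04 and 2.26 in sham and 1.07, 1.57, 1.61 and 1.57 in TBI, a difference of -0.68 (SE 0.17). Its groups did not overlap, and the difference was -0.49 without sham replicates 2 and 4. Mical1, an actin oxidase downstream of semaphorins, was lower by 0.56, Nrp1, a co-receptor for semaphorins and VEGF, by 0.53, and Dcc, the netrin receptor, by 0.53, all with overlap. Of 25 genes of neurotrophins and their receptors 3 were called higher and 0 lower, against 1.31% and 2.35% of all genes. The 3 were Ngfr, Gfra2 (0.71), the receptor for neurturin, and Vgf (0.52), a secreted peptide precursor induced by neurotrophins. A list of 30 genes on the array was taken from the study, most of them from its pathways for this interval. C2 and C3 came from its account of earlier ones. Of these 27 were tested, 8 were called higher and 5 lower. The study chose most of them on these arrays, so the count is not independent evidence of their direction, and the list is not every gene that the study names. S100b, an astrocyte calcium-binding protein named in the study's discussion and added after its values were seen, read 10.52, 10.54, 10.34 and 10.61 in sham and 10.11, 10.35, 10.52 and 10.26 in TBI, a difference of -0.19 (SE 0.10) that was not called.

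Microglial genes were lower together. All 26 tested members of the microglia and macrophage list had a negative difference (median -0.31), 13 with an unadjusted p under 0.05, against 9.93% of all genes lower at that threshold. Of these 26 genes, 3 were called lower and 0 higher, against 2.35% and 1.31% of all genes. For 9 the 4 TBI arrays lay below the 4 sham arrays, as for 6.84% of all genes. The summed signal of the list, linear and relative to the array median, ran from 1404 to 1932 in sham, from 1178 to 1365 in TBI and from 1446 to 1979 in naive. The sums of TBI lay below those of both other groups. The median score of the list overlapped between groups, from 0.91 to 1.16 in sham, from 0.81 to 0.96 in TBI and from 0.88 to 1.26 in naive.

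Itgam, the CD11b integrin of microglia and macrophages, read 3.96, 4.60, 4.08 and 4.39 in sham, 2.80, 3.34, 3.83 and 3.91 in TBI, and 3.27, 2.30, 2.79 and 3.89 in naive. It was lower than sham by 0.79 (SE 0.32), but no naive array was above the highest TBI array. Cd14, a co-receptor for bacterial lipopolysaccharide, was the third gene called lower, by 0.51, with overlap. Ctss, the lysosomal protease cathepsin S, was called too and read 7.95, 8.50, 7.91 and 8.19 in sham and 7.39, 7.65, 7.80 and 7.50 in TBI, a difference of -0.55 (SE 0.14, unadjusted p of limma 0.00202). Cd53 and the genes after it in this account were named after their values were seen. Cd53, a tetraspanin of leukocytes, read 4.39, 4.59, 4.32 and 4.61 in sham and 3.99, 3.99, 4.22 and 3.80 in TBI, a difference of -0.48 (SE 0.11). For both genes the groups did not overlap. Aif1, which encodes the microglial marker IBA1, was lower by 0.47, Lyz2, lysozyme, by 0.47, and Ptprc, which encodes CD45, by 0.44, all with no overlap. The receptors of resting microglia differed less: Cx3cr1 by -0.17, Csf1r by -0.08 and P2ry12 by -0.05, none with an unadjusted p under 0.05. Without sham replicates 2 and 4 the list median was -0.14, 4 members had an unadjusted p under 0.05, among them Cd53, Ctss and Lyz2, and Csf1r and P2ry12 turned positive (0.05 and 0.02).

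The promoters of microglial genes were searched for GAGGAAGT, a site of PU.1, the transcription factor that defines the macrophage lineage. Both strands of the 250 bases before the start were read (RefSeq, GRCr8), with ACTTCCTC as the reverse complement. Of the 26 tested microglial genes 17 had a promoter sequence and 2 of these held the letters (11.8%), against 604 of 27457 promoters of all genes (2.2%). These 2 were Cd53 and Ctss, shown here because both genes were lower with no overlap between groups. The capitals mark the match, whose first base lies 46 bases before the start in Cd53 (chr2:197087897-197088146, minus strand) and 17 bases before it in Ctss (chr2:185775146-185775395, plus strand). A match of letters is a description of the sequence, and no other motif was searched.
Cd53: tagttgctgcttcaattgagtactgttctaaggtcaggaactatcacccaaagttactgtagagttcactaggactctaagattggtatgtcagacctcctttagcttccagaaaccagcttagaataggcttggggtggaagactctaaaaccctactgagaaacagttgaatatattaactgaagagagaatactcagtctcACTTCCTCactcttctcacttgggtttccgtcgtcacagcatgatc
Ctss: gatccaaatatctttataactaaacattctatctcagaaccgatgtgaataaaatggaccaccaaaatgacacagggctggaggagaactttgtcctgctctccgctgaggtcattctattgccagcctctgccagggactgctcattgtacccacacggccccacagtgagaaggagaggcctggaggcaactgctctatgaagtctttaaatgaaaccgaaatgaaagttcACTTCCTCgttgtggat

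Other immune lists also had negative medians. Of 17 chemokines and their receptors 3 were called lower and 0 higher (median -0.26), against 2.35% and 1.31% of all genes. Ccl6, a monocyte chemokine, read 0.46, 1.07, 1.36 and 0.59 in sham and 0.10, 0.43, 0.15 and 0.30 in TBI, a difference of -0.63, with all TBI arrays below all sham arrays. Ccl3, a macrophage chemokine, was not well above background in any TBI array and is given as at least 1.11-fold lower. It passed the filter on dim probes only through sham, so its place in the count rests on the group where it is high. Ackr3, a scavenging receptor for Cxcl12, was lower by 0.56, and Cxcl12 itself, named after its values were seen, by 0.43 with no overlap, under the fold for a call. Of 7 MHC class II genes (median -0.50) and 24 complement genes (median -0.15), 0 and 1 were called lower, the latter Itgam. Cd74, the MHC class II invariant chain and also named after its values were seen, ran from 3.37 to 6.05 in sham and from 3.37 to 5.29 in TBI, a spread within each group far wider than the difference of -0.60. Of 22 reactive astrocyte genes 2 were called lower, Cd14 and Steap4 (-1.31), a metalloreductase, both with overlap. Steap4 was well above background in 3 TBI arrays, so it passed the filter on dim probes only through sham. C3, the central complement component, was not called (-0.50, SE 0.30).

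**Figure D4:**
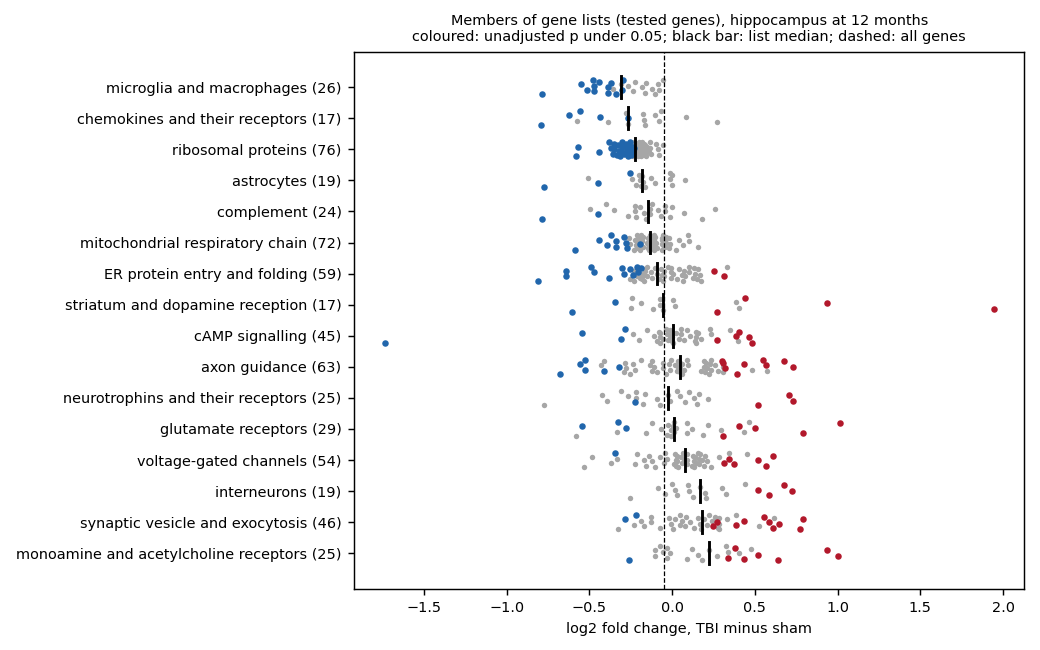
Log2 fold change of TBI over sham (x axis) of every tested member of selected lists (points), with unadjusted p under 0.05 coloured, the list median as a black bar and the median of all genes, -0.05, as a dashed line. All 26 microglial and all 76 ribosomal genes lie below 0, while the transmitter receptors spread to both sides.

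Genes of protein synthesis and of protein entry into the endoplasmic reticulum were lower by small amounts. All 76 tested ribosomal protein genes had a negative difference (median -0.23), 31 with an unadjusted p under 0.05 (9.93% of all genes) and 18 with no overlap between groups (6.84% of all genes). Of these genes 2 were called lower, Rps7 (-0.58) and Rplp1 (-0.57), near the 2.35% of all genes. Their shift depends on the scaling, with a median of -0.09 under quantile normalization. Rps23, named after its values were seen, read 9.16, 9.27, 9.10 and 9.32 in sham and 8.81, 8.65, 9.08 and 8.53 in TBI. The sham arrays of Rps23 lay within a narrow range, and TBI replicate 3 came closest to them. Of 72 genes of the mitochondrial respiratory chain 1 was called lower, Cox7c (-0.59), a subunit of cytochrome oxidase, a share below the 2.35% of all genes. In this list 66 differences were negative (median -0.14), 10 with an unadjusted p under 0.05, and 20 genes were lower with no overlap, against 6.84% of all genes.

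Of 59 genes of protein entry and folding in the endoplasmic reticulum 4 were called lower and 0 higher, against 2.35% of all genes called lower, and 15 lay lower with no overlap, against 6.84%. Herpud1, which takes part in degrading misfolded proteins of this compartment, read 4.87, 5.23, 5.26 and 4.88 in sham and 4.08, 4.85, 4.61 and 3.47 in TBI, a difference of -0.81 (SE 0.25). TBI replicate 4 was the lowest and TBI replicate 2 lay just below the sham range. Kdelr3, a receptor that returns proteins to the endoplasmic reticulum, and Pdia5, a disulfide isomerase, were each lower by 0.64 with no overlap. Kdelr3 was well above background in 3 TBI arrays and passed the filter on dim probes only through sham. Its place in the count of 4 thus rests on the group where it is high. Srp68, a part of the signal recognition particle, was lower by 0.49, but 1 other probe of Srp68 had the opposite sign with an unadjusted p under 0.05. Hspa5, the chaperone BiP and named after its values were seen, read 8.05, 8.16, 8.28 and 8.21 in sham and 8.03, 7.95, 7.93 and 7.95 in TBI, a difference of -0.21 (SE 0.08). Its groups were separate, but TBI replicate 1 lay just below sham replicate 1.

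The choroid plexus, ependyma and blood lists had the lowest medians, and they varied widely between arrays. The 11 tested choroid plexus genes had a median difference of -0.96 relative to all genes, but of -0.336 without sham replicate 3 and down to -1.22 with another array left out, with 1 called lower, Cldn1 (2.01-fold, SE 0.38 on the log2 scale), which encodes a tight junction protein. Ttr, the main secreted protein of this tissue and named after its values were seen, read 5.51, 8.57, 12.46 and 7.49 in sham and 9.54, 6.46, 6.17 and 4.33 in TBI, and its difference was not called (unadjusted p of limma 0.284). The summed signal of the list ran from 211 to 7114 in sham, 185 to 1018 in TBI and 265 to 8943 in naive, with sham replicate 3 and naive replicate 3 highest in Ttr. The sum of plexus signal thus differed by more within sham and naive than between the groups. Of 9 ependymal and ciliary genes 2 were called lower (median -0.51): Akap14, which passed the filter on dim probes only through sham, and Tmem212 (-0.78). Of 9 blood genes 1 was called lower, Hbb (-0.73), a hemoglobin chain, which was highest in sham replicate 3 at 9.02. Over all genes 2.35% were called lower, and the counts of these 3 lists rest on few tested genes. The part of attached plexus and blood in the falls of genes they express was not tested.

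Several single genes called lower were too dim in TBI to be measured there. RT1-M1-2, an MHC class I gene, read -0.34, 0.35, -0.70 and -0.24 in sham and -1.66, -2.93, -2.94 and -2.48 in TBI, at least 1.73-fold lower. Cfap95, a ciliary gene, was at least 1.68-fold lower, Tnfsf4, the ligand of OX40, at least 1.47-fold, and Dmrt3, a transcription factor of spinal and forebrain neurons, at least 1.44-fold. None of the 4 was well above background in any TBI array, so each passed the filter on dim probes only through sham. Of all 270 genes called lower, 179 had all 4 TBI arrays above background. All the others passed the filter only through sham, 26 of them with no TBI array above background.

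Other genes with small p-values were brighter, with all 4 TBI arrays well above background. Ttpa, the transfer protein for vitamin E, read 3.21, 3.44, 3.26 and 3.50 in sham and 2.04, 1.85, 2.92 and 2.38 in TBI, a difference of -1.06 (SE 0.21, 2.08-fold). Tmem100, a membrane protein of endothelium and sensory neurons, read 4.06, 4.15, 4.03 and 4.13 in sham and 3.10, 3.76, 3.09 and 2.99 in TBI, a difference of -0.86 (SE 0.17). Slco1c1, the thyroxine transporter of brain capillaries and astrocytes, read 5.32, 5.17, 5.04 and 5.16 in sham and 4.02, 4.67, 4.68 and 4.22 in TBI, a difference of -0.77 (SE 0.16). In these 3 genes the sham arrays were tight, the TBI arrays spread more widely, and the differences of -0.94, -0.81 and -0.78 without sham replicates 2 and 4 were little smaller. Trpc1, a cation channel, was lower by 0.47, with 1 other probe of opposite sign, and Tent2, a cytoplasmic poly(A) polymerase, by 0.47.

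Among the rises, Wfs1, an endoplasmic reticulum protein and a marker of CA1 pyramidal neurons, read 5.66, 5.97, 5.74 and 5.73 in sham, 6.82, 6.64, 6.18 and 6.32 in TBI and 6.03, 6.17, 5.98 and 6.31 in naive. Its difference of 0.72 (SE 0.14, unadjusted p of limma 0.000291) was 0.79 without sham replicates 2 and 4. The other 16 of 17 tested pyramidal markers were not called. Fosl2, a subunit of the AP-1 transcription factor, read 0.49, 0.53, 0.52 and 0.51 in sham and 1.27, 1.01, 0.82 and 1.31 in TBI, a difference of 0.59 (SE 0.12). The sham arrays of Fosl2 hardly differed from each other, and every TBI array was above them.

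Plac9, which encodes a small secreted protein, had the largest difference of the rises with no overlap, 2.61 (SE 0.83): 4.07, 3.75, 3.07 and 5.62 in sham and 6.53, 6.48, 6.88 and 7.06 in TBI. Its naive arrays read 3.63, 7.36, 7.55 and 4.32, spanning both groups. Nxph3 and Nxph4 encode neurexophilins, secreted ligands of presynaptic neurexins. Nxph4 read 0.93, -0.87, 0.83 and -0.98 in sham and 1.81, 1.21, 1.00 and 1.39 in TBI, and Nxph3 read 3.71, 1.52, 3.72 and 2.10 in sham and 4.43, 3.97, 3.74 and 3.76 in TBI. Both had sham replicates 2 and 4 far below the other arrays, and their differences of 1.37 and 1.21 went to 0.47 and 0.26 without them. Rxfp1, the relaxin receptor, was higher by 1.04 (SE 0.25) and by 0.68 without the pair.

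The naive rats show where the groups lie relative to unhandled animals of the same age, on another slide. For 116 of the 151 genes called higher (76.8%) the naive mean lay nearer the TBI mean than the sham mean, against 49.1% of all genes. For the 270 called lower the share was 51.1%. The sham arrays chose these genes, so the shares are a description with no test. The receptor list had a median of 0.06 in TBI minus naive and -0.20 in sham minus naive, and the synaptic vesicle list 0.04 and -0.17. Over all genes these medians were -0.10 and -0.07. Relative to all genes, the naive receptor scores ran from -1.55 to -1.18, overlapping sham and below the lowest TBI score of -1.16. For microglia the medians were -0.38 and -0.02, so that by this measure sham and naive lay together and TBI below. The microglia scores of single arrays overlapped between all groups. Across all probes TBI against naive gave 757 probes at an adjusted p under 0.05 (3.24% of 23370) and sham against naive 834 (3.3% of 25299). Both comparisons span slides, so slide and handling cannot be told apart in either.

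The effect of injury at 12 months was set against that at 6 months, from 8 other rats on the same array design, as a test of the difference. At 6 months all sham arrays lay on one slide and all TBI arrays on another, so injury and slide cannot be told apart there. Every difference between the intervals given below therefore includes this slide difference. Over all probes 3 of 25384 passed (0.0118%), all without a gene name and all lower at 12 months. The median scaling moved the counts: under the 75th percentile 343 probes passed, 107 higher and 236 lower, and under quantile normalization 635, 192 higher and 443 lower. Microglial genes had a median of 0.32 at 6 months and -0.31 at 12 months, and 6 of 26 differed with an unadjusted p under 0.05, all lower at 12 months, against 6.38% of all genes lower and 1.58% higher at that threshold. Reactive astrocyte genes went from 0.38 to -0.13, with 8 of 22 lower. None of these genes passed an adjusted p of 0.05 under median, 75th percentile or quantile scaling.

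Axon guidance, channel and vesicle genes were more often higher than lower at 12 months in this comparison. Under 75th percentile scaling 16 of 63 axon guidance genes were higher at 12 than at 6 months with an unadjusted p under 0.05 and 2 lower, against 10.5% and 9.55% of all genes. Of 54 voltage-gated channels 12 were higher and 0 lower, and of 46 synaptic vesicle genes 10 higher and 1 lower. Under median scaling these counts were 7 and 2, 4 and 1, and 2 and 1. Of 25 monoamine and acetylcholine receptors 1 was higher under median and 5 under 75th percentile scaling. Under median scaling Adam23 differed by -0.65 at 6 months and 0.57 at 12 months, a difference of 1.21 (adjusted p of limma 0.108). Wfs1 differed by -0.58 and 0.72 (difference 1.29, adjusted p of limma 0.0814), and Ttpa by 0.49 and -1.06 (difference -1.55, adjusted p of limma 0.0814). These 3 genes had opposite signs at the intervals, and whether the differences passed an adjusted p of 0.05 depended on the scaling. Under 75th percentile scaling the adjusted p of limma was 0.0611 for Adam23, 0.00747 for Wfs1 and 0.0119 for Ttpa, and under quantile normalization 0.0355, 0.00700 and 0.0122.

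**Figure D5:**
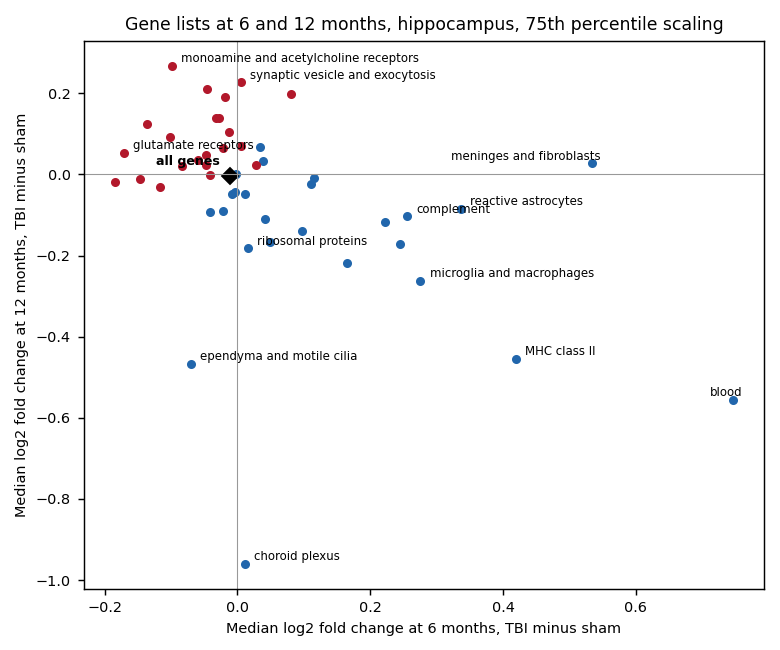
Median log2 fold change of TBI over sham of each gene list at 6 months (x axis) and 12 months (y axis) in the hippocampus under 75th percentile scaling; red lists have a median difference (12 minus 6 months) above 0, blue lists below 0, and the diamond marks all genes. Microglia lie at 0.28 and -0.26, below and to the right of the diamond.

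In the cortex at 12 months the microglia list had a median of -0.05, the receptor list -0.06 and the synaptic vesicle list -0.03, beside -0.06 over all genes. The choroid plexus list had a median of -0.61 there and the ependyma list -0.39. Of the 270 genes called lower in hippocampus, 216 were tested in cortex, 136 with the same sign (63.0%, against 54.6% of all genes) and 10 with an unadjusted p under 0.05 in that direction. Of the 151 called higher, 146 were tested there and 51 had the same sign (34.9%). A test of the difference between regions gave 0 of 26147 probes at an adjusted p of 0.05 in limma, with 2313 at an unadjusted p under 0.05.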

How the data were processed

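Messenger RNA of 12 hippocampi was measured, 1 array each, with 1 dye. The authors deposited scanner intensities from Agilent Feature Extraction 11.5.1.1, whose processed signal is background-subtracted, with flags for probes well above background. They also deposited a table of intensities that equal the processed signal divided by a constant near the 75th percentile of each array, although the methods name the median. Here log2 of the processed signal minus the array median was used, in limma 3.58.1 under R 4.3.3, with the 3 groups in 1 fit and Benjamini-Hochberg adjustment over all tested probes. A probe was tested if well above background in every array of the TBI or the sham group. A gene was read from its brightest tested probe. RefSeq identifiers named 21109 of 45598 probes (46.3%), for 16581 genes.

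The members and the 47 lists were chosen with earlier results of these data known, and so was the rule for named genes. This rule took a list from the study, the 12 largest rises and falls without overlap, and the 10 smallest p-values. The rule also took every list member called, and members of the dopamine, cyclic AMP and axon guidance lists. Genes outside it are marked in the text as named after their values were seen. The alternatives were another scaling, the deposited table, normexp background correction (offset 50, on median signals), other probe filters, array weights, a replicate block, fewer groups and leaving out arrays. No saturated probe was seen. A few genes are not reported here. The fit was tested on simulated data.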

Additional observations from a re-analysis of the deposited data

Results flagged for a closer look

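Among 268 groups of 4 arrays examined for the named genes, 14 held 1 array far from the other 3, 4 in sham and 10 in TBI, where chance gives about 1 in 20 groups. No array held more than 3 of them. In several the distant TBI array lay toward sham. Htr3a read 3.956 in TBI replicate 2, Ngfr -0.1836 in TBI replicate 2, Tmem100 3.757 in TBI replicate 2, Grm6 2.385 in TBI replicate 3 and Syt2 1.854 in TBI replicate 4. Cacna1g, a T-type calcium channel, read 3.043 and Sema4f, a semaphorin, 3.476, both in TBI replicate 3. Rac2 read 1.071 in TBI replicate 1, LOC100909907 -3.021 in TBI replicate 1 and Adcyap1, the neuropeptide PACAP, 3.197 in TBI replicate 4, all farther from sham than the other TBI arrays. In sham, Hbb read 9.023 and Tc2n, which encodes a C2 domain protein, 2.943 in replicate 3, Sec61b, a translocon subunit named after its values were seen, 5.48 in replicate 2, and Slc26a6, an anion exchanger, -1.485 in replicate 4.

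The difference between TBI and sham was unlike at the 2 intervals for 3 probes without a gene name, at adjusted p of limma between 0.0145 and 0.0369. Injury and slide cannot be told apart at 6 months. The difference, 12 minus 6 months, was -2.443 for A_42_P804822, -1.325 for A_44_P370465 and -1.955 for A_44_P327758. Each was higher in TBI than in sham at 6 months and lower at 12 months: A_44_P370465 had means of 2.15 in sham and 2.79 in TBI at 6 months, and of 2.71 and 2.01 at 12 months.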

How the results depend on the processing

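The 85 named genes that were called kept their direction under every alternative, while between 0 and 16 lost the unadjusted p under 0.05 when 1 setting or array was changed, and 46 when sham replicates 2 and 4 were both left out, an alternative chosen after seeing the data. Causes were not tested. TBI against sham gave 0 probes at an adjusted p under 0.05, but 4 with normexp and 47 with array weights, and 0 to 1 with 1 array left out (1 without naive replicate 4). Calls by fold and p were 358 higher and 828 lower, with normexp 203 and 478, without a filter on dim probes 6064 and 1084, with probes above background in both groups 335 and 537, with array weights 540 and 1194, without sham replicates 2 and 4 126 and 497, under quantile normalization 427 and 585, and with the deposited values 479 and 568. With 1 array left out they were 201 (sham replicate 2) to 623 (TBI replicate 3) higher and 564 to 1139 lower. TBI against naive gave 410 probes under quantile normalization and 100 without the filter, and 161 to 1728 with 1 array left out. Sham against naive gave 1252 under the 75th percentile, 2701 with normexp, 14259 without the filter and 316 to 1131 with 1 array left out. The 12 minus 6 month difference gave 343 probes under the 75th percentile, 635 under quantile normalization and 1 to 10 with 1 array left out, and hippocampus minus cortex 0 to 2. The microglia median relative to all genes was -0.13 without sham replicates 2 and 4. The axon guidance median relative to all genes was 0.0334 without the filter and 0.0585 to 0.144 with 1 array left out. C2 (-0.198 to 0.0194), P2ry12 (-0.179 to 0.0160) and Stat3 (-0.0422 to 0.0925) changed sign with 1 array left out. Without sham replicates 2 and 4 C2 was 0.174, Cd74 0.0129, Csf1r 0.0450, P2ry12 0.0161 and Stat3 -0.0349, and P2ry12 was 0.000204 under quantile normalization and 0.0863 with normexp. The difference in probes above background was -4.62 points (exact p = 0.0286) without TBI replicate 3 and -3.14 without sham replicate 3.

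Arrays with the same replicate number share a slide column, and their deviations from the group means correlated at 0.112, 0.0232, 0.0879 and 0.146. Deviations from a group mean cancel out, so a positive value here brings a negative mean over the other numbers. A comparison with the other numbers therefore cannot show pairing. Replicate number and slide column cannot be told apart, and the labels do not say that the numbers pair the rats. With the replicate block TBI against sham gave 0 probes at an adjusted p under 0.05 and 351 higher and 906 lower by fold and p, and the 12 minus 6 month difference gave 0 probes.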

Other observations

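Ion channels, other neuropeptides and single members of other lists were also read. Of 54 tested voltage-gated channels 3 were called higher and 0 lower (median 0.08), against 1.31% and 2.35% of all genes. Among the 3 were Hcn3 (0.61, SE 0.26), a pacemaker channel opened by hyperpolarization, and Cacna1g (0.57), a T-type calcium channel. Both had overlapping groups, and both had an unadjusted p over 0.05 without sham replicates 2 and 4, with differences of 0.31 and 0.38. Of 33 neuropeptides 3 were called higher and 1 lower (median 0.09): Adcyap1 (0.62), Cort (0.73) and Vgf (0.52), and Pdyn (-0.61). Adcyap1, which encodes the peptide PACAP, was 0.11 without the pair.

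Over all genes 1.31% were called higher and 2.35% lower, so a single call in a list describes that gene and not the list. In lists with 1 called gene, Ifi44, an interferon-induced gene, was lower by 0.72 among 23 genes of the interferon response. Pdgfra, the growth factor receptor that marks oligodendrocyte progenitors, was lower by 0.51 among 15 markers, and by 0.55 without sham replicates 2 and 4. Ccn3, a matricellular protein, was higher by 0.72 among 18 markers of meninges and fibroblasts. Psma2, a proteasome subunit, was lower by 0.63 among 42 proteasome genes, a share near that of all genes called lower. The 25 tested genes of oligodendrocytes and myelin (median 0.06) and the 29 of hypoxia and glycolysis (median -0.01) held 0 calls, and the 24 of endothelium and pericytes (median 0.02) held 1, Slco1c1.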
